A study of Caenorhabditis elegans with 2 samples.

Results

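The regions described here are the 300 PHA-4 binding regions that lie on chromosome X of the nematode Caenorhabditis elegans, out of 1484 regions in all. They are every chromosome X entry of the authors' ce11 list of reproducible regions, the list kept after thresholding on the irreproducible discovery rate (IDR), which scores how well region ranks repeat between replicates. The 1184 regions on the 5 autosomes of the same list serve as the comparison. The rule for a region's membership uses its chromosome and no measured value, but chromosome X was picked for description with earlier results of these data known.

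PHA-4 protein was precipitated with its bound DNA and the DNA sequenced (ChIP-seq), using whole animals of the L4 stage, which precedes adulthood. There was 1 group, strain OP37, with genotype unc-119(ed3) III and the integrated eGFP-pha-4 insertion wgIs37, and it had 2 biological replicates of pooled male and female animals. DNA fragments of 150 to 350 bp were selected, and the submitters' manifests name 1 control file, which all the ce11 lists share. The tagged protein was made from a transgene in animals whose own pha-4 gene is not listed as altered. The labels give pha-4 as the antibody and eGFP-pha-4 as the target, so whether untagged PHA-4 was also precipitated is not stated. Whole larvae mix all tissues, and the labels do not give the share of males. There is no second condition, so every comparison below is between places in the genome, and p-values take regions or genes as units, neighbouring ones included, without measuring the spread between replicates.

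PHA-4 is the worm's FoxA protein, a forkhead transcription factor that specifies the pharynx and also acts in the gut, in fasting and in lifespan. Hermaphrodites carry a pair of X chromosomes and males a single one, and a condensin-based dosage compensation complex binds both X chromosomes of hermaphrodites to lower their expression. That complex is loaded at sites on X that share a GC-rich motif, of which GCGCAGG is a 7-base stretch. Forkhead proteins bind short AT-rich sequences.

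The clearest sequence feature of the X regions was GCGCAGG, present near the summit (the highest point) of 14 X regions. The 9 of them in which T and C stand right before the stretch are shown first, because these share the letters before it as well. Each line gives 31 bases of the WBcel235 (ce11) genome from RefSeq, read 5′ to 3′ on the strand that carries the stretch, with GCGCAGG in capitals, and names the nearest protein-coding gene, or the gene whose intron holds the summit.
Near W02H3.3, chrX:11094215-11094245, minus strand: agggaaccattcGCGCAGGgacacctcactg
Near F22H10.2, chrX:16682088-16682118, minus strand: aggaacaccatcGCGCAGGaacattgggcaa
In Y41G9A.17, chrX:2997112-2997142, minus strand: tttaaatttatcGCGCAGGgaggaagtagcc
Near nspc-17, chrX:14525889-14525919, minus strand: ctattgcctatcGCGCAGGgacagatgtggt
Near ins-39, chrX:1345044-1345074, plus strand: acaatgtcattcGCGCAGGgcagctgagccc
In mom-1, chrX:6296564-6296594, plus strand: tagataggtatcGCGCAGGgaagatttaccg
Near xol-1, chrX:8036390-8036420, minus strand: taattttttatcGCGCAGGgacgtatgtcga
Near F20B6.9, chrX:4209255-4209285, minus strand: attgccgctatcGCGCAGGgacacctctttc
Near col-185, chrX:13514546-13514576, plus strand: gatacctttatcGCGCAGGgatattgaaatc

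The region at the promoter of lin-14, a regulator of developmental timing, also held the stretch, but with other letters around it.
At lin-14, chrX:11465341-11465371, plus strand: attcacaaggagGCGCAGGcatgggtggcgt
Counted over all 14 regions, a C stood right before the stretch in 12, a G right after it in 10, and an A at the second base after it in 12. In 12 regions the centre of the stretch lay within 25 bp of the summit, and the median distance was 11.5 bp.

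The summit base with 50 bases to each side is shown for 3 of the strongest X regions that hold the PHA-4 consensus and 1 that lacks it. The consensus was taken as 7 bases on either strand, namely T, then A or G, then T, then T, then G or T, then A or G, then C or T. Capitals mark that consensus, on either strand, and in the first sequence also the complement of GCGCAGG. All are on the plus strand.
Strongest X region, chrX:11094173-11094273: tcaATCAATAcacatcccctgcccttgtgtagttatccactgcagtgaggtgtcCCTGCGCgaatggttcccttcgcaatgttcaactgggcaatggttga
Second, nearest pigx-1, chrX:1093234-1093334: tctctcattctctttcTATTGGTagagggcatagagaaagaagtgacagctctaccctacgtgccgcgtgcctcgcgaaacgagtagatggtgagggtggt
The third, nearest ZK899.6, chrX:9465781-9465881: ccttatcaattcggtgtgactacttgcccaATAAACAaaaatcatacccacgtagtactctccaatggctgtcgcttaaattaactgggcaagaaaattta
Promoter of bet-2, without the consensus, chrX:10568992-10569092: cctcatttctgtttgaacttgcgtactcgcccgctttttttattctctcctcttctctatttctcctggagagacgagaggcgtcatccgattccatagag

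GCGCAGG was found within 50 bp of the summit in 14 of 300 X regions, or 4.67% (95% exact binomial interval 2.57 to 7.71%), against 6 of 1184 autosomal regions, or 0.507% (0.186 to 1.10%). The ratio was 3.20 on the log2 scale and passed Fisher's exact test (adjusted p = 1.041e-05, Benjamini-Hochberg over 6 sequences). Among all windows of the same length cut from the genome, 0.184% on X and 0.187% on the autosomes held it. The stretch itself was thus about as frequent on both, at 20.1 matches per Mb on X and 19.9 per Mb on the autosomes.

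The excess held in each replicate taken alone. Among the 1484 strongest regions of replicate 1, 4.65% of X summits and 0.592% of autosomal summits held the stretch, and in replicate 2 the shares were 4.44% on X and 0.756% on the autosomes. In a split made after the data were seen, it stood mainly outside protein-coding promoters. There, 9 of 142 X regions (6.34%) and 0 of 396 autosomal regions held it, a count of 0 that allows an autosomal share of up to 0.927%, and the difference passed the test (Fisher's exact test, adjusted p = 3.08e-05). Inside those promoters the counts were 5 of 158 on X and 6 of 788 on the autosomes (exact adjusted p = 0.144), so the call was lost there.

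The X regions with GCGCAGG ranged widely in signal, with a higher median than the other X regions. Their signal, column 7 of the authors' lists on a scale the sources do not state, had a median of 47.7 (28.03 to 126), against 33.97 for the other X regions. The autosomal regions with the stretch had a median of 41.6, against 33.6 for the other autosomal regions. The weakest on X were those near col-185 (32.5), R04E5.9 (30.5) and sur-5 (28.03), below the median of the other X regions. The strongest X region is one of them, with a signal of 126 in the pooled list, 73.9 in replicate 1 and 48.8 in replicate 2. The region next to F22H10.2 reached 71.5 pooled, 44.4 in replicate 1 and 27.8 in replicate 2. The region near gtr-1 had 63.0 pooled, 30.3 in replicate 1 and 31.5 in replicate 2, so the replicates were close there. Another region had xol-1, the X-linked switch gene of sex determination, as its nearest coding gene, 4915 bp away. Its summit lay in a non-coding RNA promoter, 276 bp upstream of the ncRNA gene C18A11.13. This region had 44.5 pooled, 19.8 in replicate 1 and 17.9 in replicate 2. In all, 6 of the 20 strongest X regions held the stretch. These neighbouring genes are named because the regions lie near them, after the values were seen.

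The share of X summits with GCGCAGG was lower further down the authors' longer pooled list. It was 1.12% for X regions ranked 1485 to 6000, against 0.424% on the autosomes, and 0.416% for X regions ranked 15001 to 30000, against 0.272% on the autosomes. Of the 14 regions, 4 also held the PHA-4 consensus, against 157 of all 300 X regions (52.3%) and 28.7% of all X windows, with no test.

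**Figure D1:**
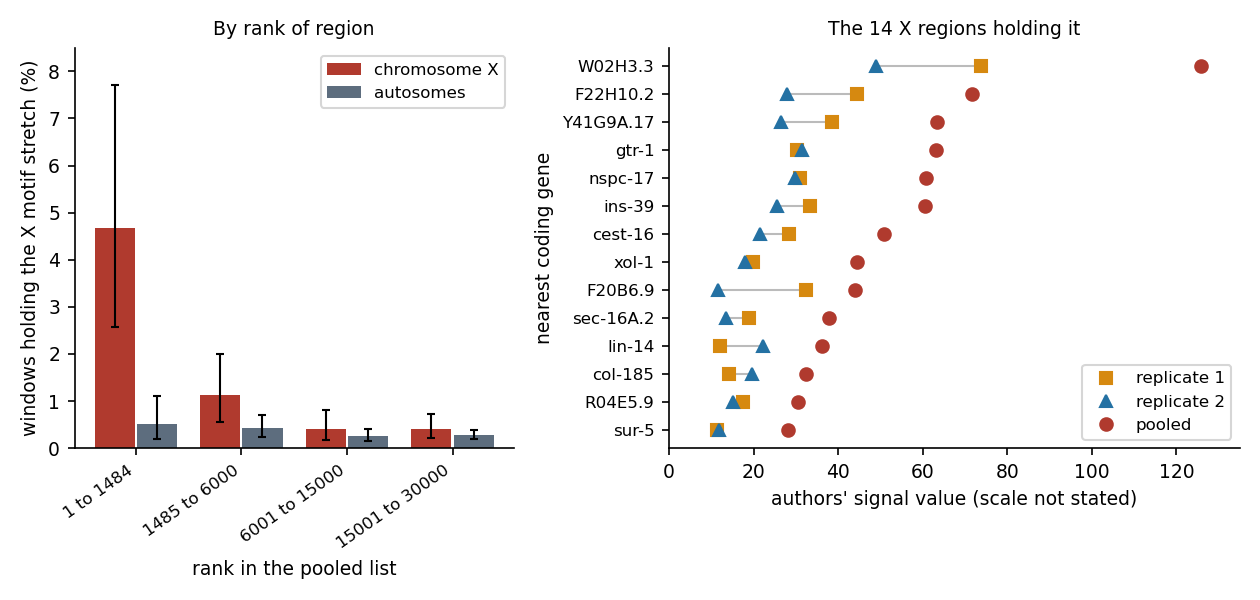
Left, share of summit windows (50 bp to each side) holding GCGCAGG (the X motif stretch) on chromosome X and on the autosomes, by rank in the pooled list, with 95% exact binomial intervals. Right, the authors' signal in replicate 1, replicate 2 and the pooled list for the 14 X regions that hold it, ordered by pooled signal from 126 down to 28.03; the X share stands at 4.67% in the first rank class and near the autosomal share in the last.

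The other sequences differed less. The PHA-4 consensus was found at 157 X summits (52.3%) and 558 autosomal summits (47.1%), a difference that missed the threshold (exact adjusted p = 0.241), against 28.7% of all X windows and 25.2% of all autosomal windows. With 100 bp to each side of the summit the shares were 78.7% on X and 67.9% on the autosomes (exact adjusted p = 0.0007055). With the stricter forkhead sequences (T, then A or G, then TTT, then A or G, then C) they were 30% on X and 22.6% on the autosomes (exact adjusted p = 0.0227), so the call depended on how the sequence was searched. All windows held the stricter sequences in 7.44% of cases on X and in 6.03% on the autosomes. Among regions outside protein-coding promoters the direction turned, with 52.1% on X and 53.0% on the autosomes.

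GAGAGAG, a repeat bound by GAGA-type factors in flies, was rarer on X, at 28 X summits (9.33%) against 178 autosomal summits (15.03%; exact adjusted p = 0.0340). Single autosomes ran from 10.05% on V to 18.6% on IV, so X was lowest but close to V. The call was lost on the strongest regions of either replicate alone, with exact adjusted p = 0.0895 in replicate 1 and 0.0591 in replicate 2, while the log2 ratio was -0.52 in replicate 1 and -0.65 in replicate 2, against -0.69 for the reproducible list. It held among the strongest 6000 pooled regions, with 7.27% on X and 12.3% on the autosomes (exact adjusted p = 8.769e-07), and with 100 bp to each side, with 17.7% on X and 23.8% on the autosomes (exact adjusted p = 0.0496). It was lost among promoter regions, with 8.86% on X and 11.9% on the autosomes (exact adjusted p = 0.585), and held outside promoters, with 9.86% on X and 21.2% on the autosomes (exact adjusted p = 0.00675). All windows held GAGAGAG in 1.25% of cases on X and in 1.39% on the autosomes.

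The E-box CACGTG was found at 6.0% of X summits and 4.31% of autosomal summits (exact adjusted p = 0.330), against 1.32% of all X windows and 1.75% of all autosomal windows. The intestinal GATA sequence GATAAG was found at 3.33% of X summits and 3.55% of autosomal summits, against 3.85% of X windows and 3.65% of autosomal windows. The run TTTTTTT was found at 13.7% of X summits and 11.99% of autosomal summits, against 21.3% of X windows and 22.1% of autosomal windows. None of these 3 passed Fisher's exact test between X and the autosomes. The stricter forkhead sequences are a subset of the PHA-4 consensus, and none of the other sequences contains another, though matches may share a few bases. A match is a description of the letters, not a binding site.

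Within X, summits could be set against their own surroundings, a window of the same width 500 bp to the right. The consensus was at 52.3% of X summits against 28.3% of flanks (exact binomial test on discordant regions, adjusted p = 1.188e-08), and GAGAGAG was at 9.33% against 0.667% (exact adjusted p = 2.604e-06). CACGTG was at 6.0% of X summits against 2.0% of flanks (exact adjusted p = 0.0272). GCGCAGG was at 14 X summits and at 0 flanks, and TTTTTTT was rarer at summits, with 13.7% of summits against 21.3% of flanks (exact adjusted p = 0.0228). GATAAG had 3.33% of summits and 5.33% of flanks (exact adjusted p = 0.327). The median GC content of the summit window was 45.5% on X and 43.6% on the autosomes, above 35.2% for all of X and 35.5% for all autosomes.

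**Figure D2:**
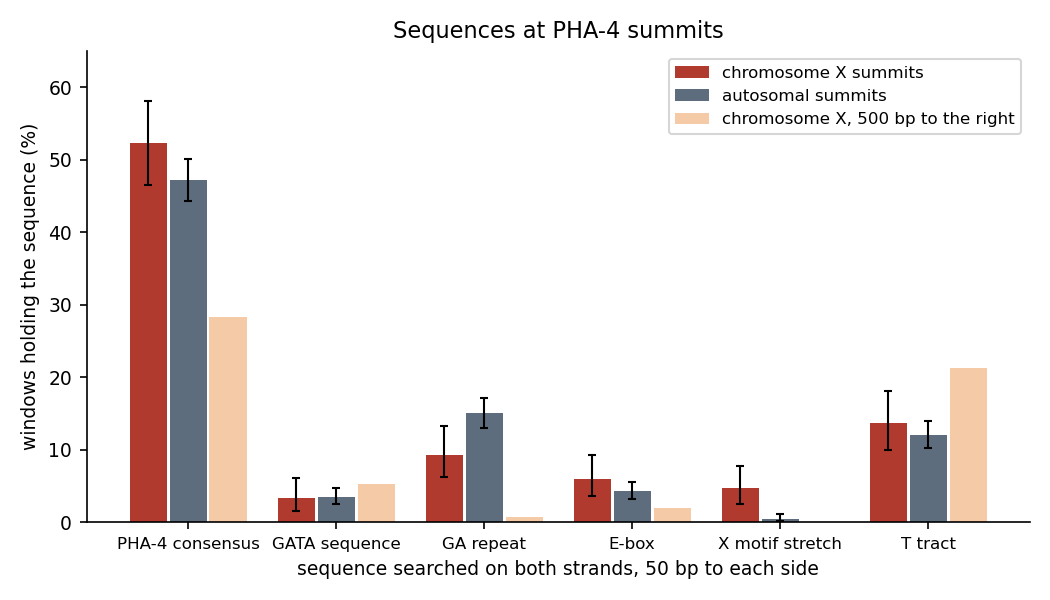
Share of windows (50 bp to each side of a centre) holding each of 6 sequences, at chromosome X summits and autosomal summits (with 95% exact binomial intervals) and 500 bp to the right of X summits. The GA repeat is GAGAGAG, the E-box CACGTG, the X motif stretch GCGCAGG and the T tract TTTTTTT; the X motif stretch stands at 4.67% of X summits, 0.507% of autosomal summits and 0% of X flanks.

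Chromosome X held more regions than any autosome, 300 against 219 on V to 262 on III. Its share of all regions was 20.2% (95% exact binomial interval 18.2 to 22.4%), while X holds 14.7% of the bases in protein-coding promoter windows, which run 1000 bp upstream to 200 bp downstream of each transcript's 5′ end. The ratio of 1.37 passed an exact two-sided binomial test (p = 9.769e-09), but it sets regions of every class against promoter-window bases alone. In a split made after the data were seen, X held 158 of 946 regions inside those windows (16.7%), which missed the threshold (adjusted exact binomial p = 0.216 over 5 classes). Single autosomes departed from this measure too, III with 17.65% of regions against 12.8% of promoter-window bases and V with 14.8% against 24.1%. Against the 17.7% of all bases that lie on X the excess of all X regions was smaller (exact binomial p = 0.0118). Per Mb X had 16.9 regions, between 10.5 on V and 19.01 on III, so X did not stand outside the autosomes by that measure. Without the regions that hold GCGCAGG, a setting added after the data were seen, X still had 286 of 1464 regions (19.5%, exact binomial p = 4.943e-07).

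The X share was much the same at every depth of the lists. Replicate 1 had 4303 of 21039 regions on X (20.5%) and replicate 2 had 4286 of 20807 (20.6%), and the pooled list had 6083 of 30000 (20.3%). Among the 100 strongest regions X held 25 in the pooled list, 24 in replicate 1 and 19 in replicate 2, with intervals that all include 20.3%. Of the pooled X regions 300 (4.93%) were in the reproducible list, against 1184 (4.95%) of the pooled autosomal regions (Fisher's exact test, p = 0.974), where the background over all chromosomes was 4.95%. The reproducible list held exactly the 1484 strongest pooled regions, so this comparison is a cut in signal and does not measure repeatability. Taking the strongest 6000 pooled regions in place of the reproducible list, 21.03% of X regions and 19.7% of autosomal regions were in (exact p = 0.0260).

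**Figure D3:**
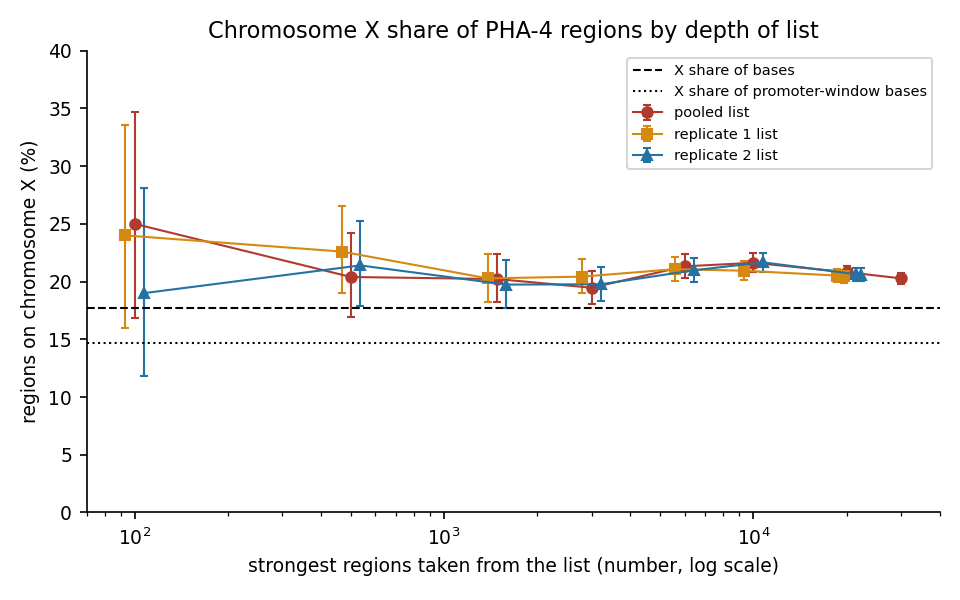
Chromosome X share of the strongest regions, by number of regions taken (log scale), in the pooled list and in each replicate's list, with 95% exact binomial intervals; the replicate points are shifted sideways a little. Dashed and dotted lines mark the X share of all bases (17.7%) and of promoter-window bases (14.7%); from 500 regions on, the 3 lists stay between 19.5% and 22.6%.

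X regions lay less often in protein-coding promoters. Of the X summits 158 (52.7%) were in such a window, against 788 autosomal summits (66.6%; Fisher's exact test, adjusted p = 2.902e-05 over 5 classes), and the X share was below that of each autosome (63.0 to 71.8%). Promoter windows also take less of X, 21.8% of its bases against 27.2% on the autosomes, and relative to bases the classes were alike, 2.41 times on X and 2.45 times on the autosomes. Promoter windows of non-coding RNA genes, counted only outside coding promoters, held 51 X summits (17%) against 95 autosomal summits (8.02%; exact adjusted p = 2.902e-05), with 12.7% of the bases of X and 10.1% of autosomal bases. That share was above each autosome (4.56 to 15.5%).

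The remaining classes did not pass the test. Intergenic summits made up 60 on X (20%) and 194 on the autosomes (16.4%; exact adjusted p = 0.241), introns 26 on X (8.67%) and 95 on the autosomes (8.02%), and exons 5 on X (1.67%) and 12 on the autosomes (1.01%). The intergenic difference did pass with narrower promoter windows of 500 and 100 bp (28.7% on X and 22.5% on the autosomes, exact adjusted p = 0.0458), with the strongest 6000 pooled regions (exact adjusted p = 0.0158) and on replicate 1 alone (exact adjusted p = 0.0276). Intergenic sequence takes 23.4% of the bases of X and 15.9% of autosomal bases, so relative to bases intergenic summits were fewer on X, 0.854 times against 1.03 times on the autosomes. The same turn was seen with the narrower windows, 0.928 times on X against 1.07 times on the autosomes, and with the strongest 6000 pooled regions, 0.838 times on X against 1.04 times on the autosomes. In a split made after the data were seen, X held 142 of all 538 regions outside coding promoters (26.4%) against 18.7% of the bases (exact binomial p = 1.188e-05, not adjusted). Inside coding promoters it held 158 of 946 (16.7%) against 14.7% (adjusted exact binomial p = 0.216 over 5 classes). Of the 5 classes only non-coding RNA promoters passed, with 51 of 146 regions on X (34.9%) against 21.2% of the bases (adjusted exact binomial p = 0.0007615). The bases of that class include the windows of piRNA genes, though no X region of the class lay at a piRNA gene. Intergenic regions showed no excess, with 60 of 254 on X (23.6%) against 24.1% of the bases (adjusted exact binomial p = 0.942).

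**Figure D4:**
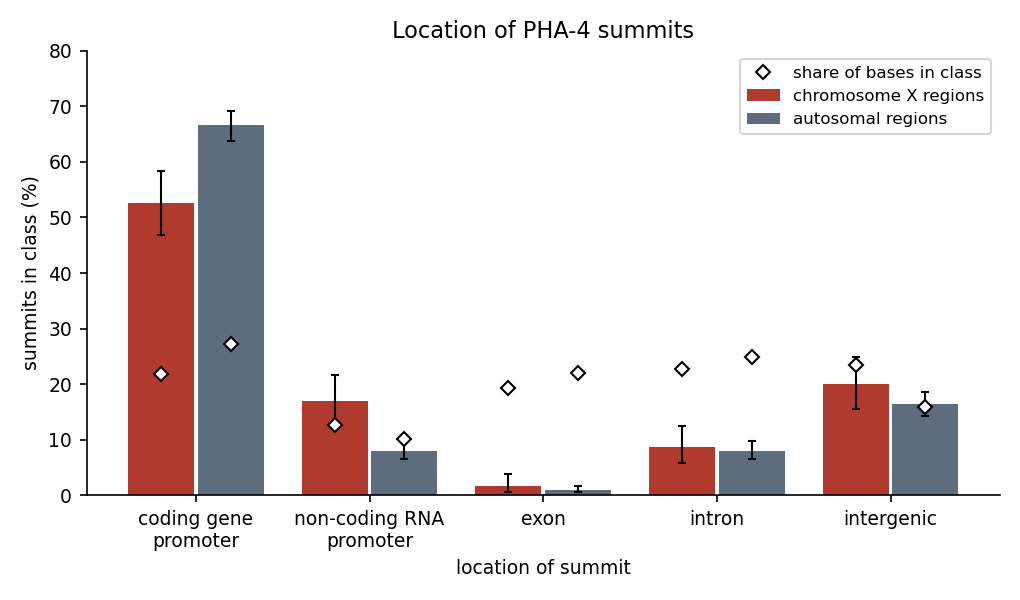
Share of summits in 5 location classes for chromosome X and autosomal regions, with 95% exact binomial intervals, and as open diamonds the share of bases each class takes on X and on the autosomes. Coding gene promoters hold 52.7% of X summits and 66.6% of autosomal summits, and non-coding RNA promoters 17% of X summits and 8.02% of autosomal summits.

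X summits lay further from the 5′ ends of coding genes, which were also sparser on X. There were 2731 coding genes in 17.72 Mb of X and 17242 in 82.55 Mb of autosomes, and distances were not corrected for this. The median distance to the nearest protein-coding 5′ end was 790.5 bp on X and 324 bp on the autosomes, and 24 X summits (8.0%) lay over 5 kb away, against 43 autosomal ones (3.63%). Within coding promoters the medians were 236 bp on X and 181 bp on the autosomes. A region between genes that share promoter sequence was rarer on X: 16 of 158 promoter summits (10.1%) fell in the windows of more than 1 gene, against 288 of 788 (36.6%) on the autosomes (Fisher's exact test added after the data were seen, p = 3.414e-12). Shared windows took 4.51% of X promoter bases and 11.3% of autosomal promoter bases, and the share of such summits ran between 29.7 and 41.3% on single autosomes.

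The 51 X regions at non-coding RNA promoters were next to genes annotated as ncRNA in 42 cases, tRNA in 7, lincRNA in 3, miRNA in 2 and snoRNA in 1, some regions counting for several. The strongest lay 186 bp upstream of the ncRNA gene ZK377.13, with a signal of 60.02 pooled, 46.4 in replicate 1 and 13.3 in replicate 2, so replicate 1 was far higher. The third strongest lay 74 bp upstream of the annotated 5′ end of let-7, the microRNA that drives the step from larva to adult, chrX:14745240-14745549. It had 51.5 pooled, 22.9 in replicate 1 and 25.9 in replicate 2. It held the PHA-4 consensus and was singled out after its values were seen.

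The strongest X regions were of all kinds. Of the top 20, 9 lay in coding promoters and 8 were intergenic, and 10 held the consensus. The signal of all X regions had a median of 34.4 (lowest 25.99, highest 126), against 33.6 on the autosomes (25.9 to 226), and 158 X regions (52.7%) were above the autosomal median (Fisher's exact test against the autosomal regions, p = 0.438). On the threshold's edge, the weakest X region of the reproducible list had 25.99 and the next X region of the pooled list 25.93, while the median X region below had 5.09. Only 1 X region was among the 10 strongest of the list.

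Among the strong X regions at coding promoters, F17E5.2 had 72.7 pooled, 39.6 in replicate 1 and 31.6 in replicate 2. The region shared by rbg-1 and plp-2 had 71.7 pooled, 29.4 in replicate 1 and 43.1 in replicate 2, and was thus higher in replicate 2. The promoter of bet-2, which encodes a bromodomain protein, had 70.8 pooled, 40.6 in replicate 1 and 31.9 in replicate 2. The promoter of rpl-11.2, a ribosomal protein gene, had 65.4 pooled, 44.3 in replicate 1 and 20.9 in replicate 2. The promoter of asb-2, an ATP synthase subunit gene, had 64.9 pooled, 30.8 in replicate 1 and 31.8 in replicate 2. The region shared by asg-2, another ATP synthase subunit gene, and glr-6, a glutamate receptor gene, had 61.1 pooled, 39.7 in replicate 1 and 21.04 in replicate 2. The region between pifk-1, a lipid kinase gene, and tbc-11, a Rab regulator, had 61.3 pooled, 37.1 in replicate 1 and 25.4 in replicate 2. The promoters of nspc-17, a nematode-specific peptide gene, and ins-39, an insulin-like peptide gene, had 60.8 and 60.5 pooled, and both regions held GCGCAGG.

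Distances of the strong regions away from coding promoters are to the nearest protein-coding 5′ end, on either side of it. These were the top one, 3963 bp from W02H3.3, and the second, 3729 bp from pigx-1, with 85.9 pooled, 30.9 in replicate 1 and 56.0 in replicate 2. The region 2486 bp from ZK899.6 had 80.6 pooled, 61.0 in replicate 1 and 20.2 in replicate 2, so the replicates differed there. The region 2131 bp from D1005.2 had 72.7 pooled, 34.6 in replicate 1 and 33.6 in replicate 2. The region 4656 bp upstream of egrh-1, a zinc-finger gene of the early growth response family, had 69.3 pooled, 49.8 in replicate 1 and 21.7 in replicate 2. The other strong ones lay 2568 bp from F22H10.2, 3970 bp from gtr-1, 1712 bp from F19H6.5 (60.2 pooled), in an exon of the ncRNA gene C30E1.9, 7062 bp from C30E1.4 (64.6), in an intron of Y41G9A.17 (63.5), and 6373 bp from sax-3, the Robo guidance receptor gene.

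Overlap with the replicates' own lists was close on X and on the autosomes. Of the X regions, 149 (49.7%) overlapped the 1484 strongest of both replicates, against 581 autosomal regions (49.1%; Fisher's exact test, p = 0.897). Neither was overlapped by 10 X regions (3.33%) and 59 autosomal regions (4.98%; exact p = 0.282). In the full lists each replicate overlapped 299 of the 300 X regions. Of the 1184 autosomal regions, replicate 1 overlapped 1180 and replicate 2 overlapped 1181. Median matched signals on X were 18.7 in replicate 1 and 15.97 in replicate 2, and on the autosomes 18.6 in replicate 1 and 16.3 in replicate 2. The median log2 ratio of replicate 1 over replicate 2 was 0.20 on X (SD 0.83, 291 matched regions) and 0.15 on the autosomes (SD 0.83). The replicates differed by more than 2-fold at 62 X regions (21.3%) and 228 autosomal regions (19.5%; exact p = 0.511). A single pair of libraries gives no estimate of spread for any 1 region beyond this difference.

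**Figure D5:**
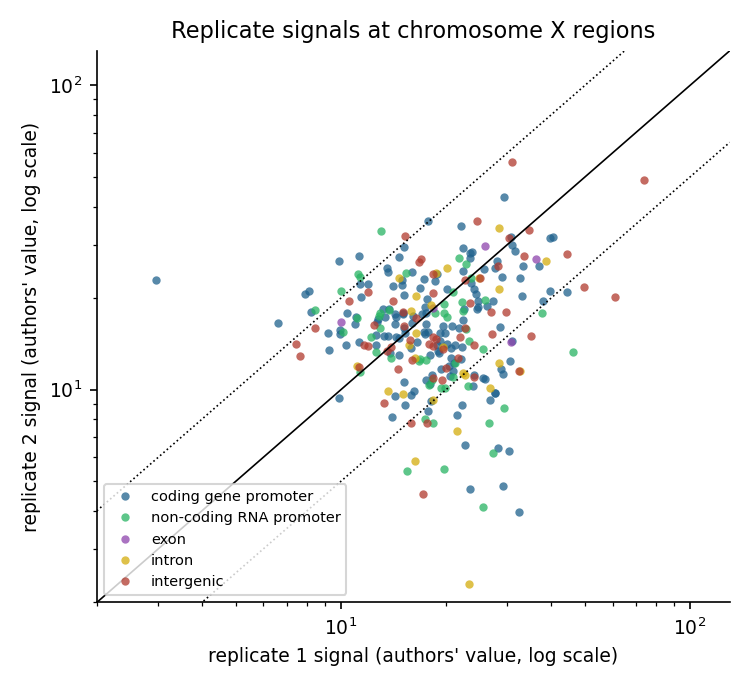
Signal in replicate 1 and replicate 2 (log scales, authors' values) at the 291 chromosome X regions matched in both lists, coloured by location class. The solid line marks equal signals and the dotted lines 2-fold differences; 62 regions lie outside the dotted lines.

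X regions were spread along the chromosome. Of the X regions, 40 (13.3%) had another within 2000 bp, against 173 autosomal regions (14.6%; Fisher's exact test, p = 0.645), and the median gap between neighbouring X summits was 32118 bp, against 39050 bp on the autosomes. Full bins of 1 Mb held 12 to 28 X regions (median 16), and the longest gap was 444450 bp. A run was counted where each summit lay within 5000 bp of the next. The longest run had 6 regions over 15946 bp, reaching across fkh-9, a forkhead gene, towards ttr-48. A run of 5 regions over 6268 bp began 1737 bp from the 5′ end of mdl-1, a Mad-like basic helix-loop-helix gene, and had its last 3 regions inside the body of abts-4, a bicarbonate transporter gene. Its strongest 2 regions had 57.5 and 56.5 pooled.

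The gene with most regions was lin-14, with 5 in its body and the 1 kb upstream of it. Its promoter region had 36.2 pooled, 11.97 in replicate 1 and 22.3 in replicate 2. The intronic regions had 51.04, 38.8, 35.7 and 27.2 pooled, and the strongest of these had 24.9 in replicate 1 and 23.3 in replicate 2. The one at 35.7 had 23.3 in replicate 1 and 2.31 in replicate 2, so only replicate 1 gave it a high signal. With 3 regions each came fkh-9 (34.3, 34.2 and 28.6 pooled), nhr-3, a nuclear hormone receptor gene (33.6, 39.2 and 36.1), scd-1 (30.3, 40.5 and 30.3) and abts-4 (56.5, 31.6 and 57.5). No coding promoter window on X held 3 regions. The windows of ajm-1, cebp-1 and mob-2 held 2 each.

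At the level of genes, 172 of 2731 coding genes on X (6.30%) had a summit in their promoter window, against 1074 of 17242 autosomal genes (6.23%; Fisher's exact test, p = 0.898), and the share over all chromosomes was 6.24%. Each region was counted for every gene whose window held it. Given to the nearest gene only, regions tied 5.68% of X genes and 4.47% of autosomal genes (exact p = 0.00699). With the strongest 6000 pooled regions, 585 X genes (21.4%) and 3330 autosomal genes (19.3%) were tied (exact p = 0.0110), where the share over all chromosomes was 19.6%.

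Of all X coding genes 6.30% were tied, and 21.4% with the strongest 6000 pooled regions. The gene list counts here and below are small, stand beside these shares and were not tested. Genes of sex determination and dosage compensation were tied in 2 of 6 cases on X. The promoter of sdc-2, which directs the dosage compensation complex to X, had 46.4 pooled, 28.6 in replicate 1 and 16 in replicate 2. The promoter of sdc-1, a zinc-finger partner of it, had 29.9 pooled, 10.4 in replicate 1 and 17.9 in replicate 2. Both fox-1 and ceh-39, X-linked elements of the sex signal, had only weaker pooled regions, at 12.01 and 11.9.

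Genes of the pharynx, the organ PHA-4 specifies, were tied in 2 of 10 cases, beside 6.30% of all X coding genes, with no test. The promoter of peb-1, a DNA-binding protein of the pharynx, had 26.4 pooled, 22.6 in replicate 1 and 6.59 in replicate 2, and nhr-48 had 26.3 pooled, 17.7 in replicate 1 and 8.54 in replicate 2. An intron of peb-1 held a second region, with 30.7 pooled, 21.6 in replicate 1 and 7.30 in replicate 2. The promoter regions of peb-1 and nhr-48 were near the threshold of the list and were higher in replicate 1. A further 3 entered only with the strongest 6000 pooled regions: myo-2, the pharyngeal myosin heavy chain gene, at 18.3, pha-2, a homeobox gene of the pharynx, at 12.98, and glr-8 at 12.9. The windows of ceh-28 and eat-20 held no summit from either list.

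Of the genes listed for epidermis and cuticle, 3 of 15 on X were tied. This count and the next stand beside 6.30% of all X coding genes, with no test. The tied genes are not all specific to the epidermis. They were dpy-22, a Mediator subunit gene, with 40.7 pooled, dpy-23, a clathrin adaptor gene, with 39.7, and ajm-1, an apical junction gene, with 39.04. The windows of bar-1 and dpy-3 had none. Of the stress and autophagy genes 3 of 10 were tied: atf-4, a factor of the integrated stress response, with 31.8, aak-2, a catalytic subunit of AMP-activated kinase, with 31.7, and dve-1, a factor of the mitochondrial stress response, with 26.4. The windows of atg-2 and hsp-25 held no reproducible region.

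The other groups are small, and their counts stand beside the 6.30% of all X coding genes with no test. Of the 33 genes on the neuronal list only sma-9 was tied, a zinc-finger gene of TGF-beta signalling that is not a marker of neurons. It had 32.9 pooled, 32.4 in replicate 1 and 3.97 in replicate 2, and aex-3 and cat-1 were not tied. Intestinal and yolk genes had 0 of 15, though elt-2, the main GATA factor of the gut, had a weaker pooled region at 18, and asp-3 and cdh-9 had none. Muscle genes had 0 of 15, egl-15 and egl-17 among them, although an intron of unc-115 held a reproducible region at 37.4 pooled. With the strongest 6000 pooled regions, 4 of 15 muscle genes (26.7%) and 3 of 15 intestinal genes (20%) were tied. On the neuronal list 2 of 33 (6.06%) were, sma-9 included, against 21.4% of all X coding genes. In developmental timing and signalling, lin-14 was tied and the other 19 genes were not, alg-1 and apl-1 among them. Of the 20, 10 had a region in the strongest 6000 pooled. A tie counts promoter windows only, and reproducible summits also lay inside mom-1 (50.9 pooled), kin-20 (40.5 and 39.7) and daf-12 (29.3). Over all lists, 12 of 123 genes (9.76%) were tied, against 6.30% of all X coding genes, with no test.

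Counts for gene families of X, small beside the 2731 coding genes of which 6.30% were tied, are given as a description only. None of the 13 flp and 19 nlp neuropeptide genes, 18 npr receptor genes, 18 ceh homeobox genes, 27 col collagen genes, 18 lgc ion channel genes and 5 vit yolk genes was tied. Of the 23 nhr nuclear hormone receptor genes on X, 4 were: nhr-1, nhr-3, nhr-32 and nhr-48.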

How the data were processed

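The authors deposited region lists on builds ce10 and ce11, and the ce11 lists were used. Per the submitters' manifests, regions were called in each replicate and in both replicates pooled against a control file, and the lists were then thresholded on reproducibility. The caller, its version and the threshold are not given in the sources used here. Column 7 was taken as the authors' signal per region, whose scale is not stated, and column 10 as the summit's offset. Read depth is unknown, so signals carry no counting interval; intervals on shares of regions cover counting error only.

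Summits were placed on Ensembl release 115 gene models and the RefSeq WBcel235 genome with Python 3.11.15, NumPy 2.4.6, pandas 2.3.3 and SciPy 1.17.1. Classes were assigned in the order coding promoter, non-coding RNA promoter, exon, intron, intergenic. Non-coding RNA genes were all genes other than coding genes and pseudogenes, piRNA genes included. Tests were Fisher's exact test and exact binomial tests, two-sided, with Benjamini-Hochberg adjustment over 5 classes or 6 sequences, at a threshold of 0.05. Replicate regions were matched at summits within 150 bp, or by an overlap of at least 1 bp. The counting steps were tested on simulated regions.

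The genes named are those of the 20 strongest X regions, up to 3 tied and 2 untied members of each gene list on X, and X genes with 3 or more regions. Others are named where the text says so. The regions and gene lists were chosen with earlier results of these data known. Alternatives were other region lists, windows, builds and each replicate alone.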

Additional observations from a re-analysis of the deposited data

How the results depend on the processing

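No paired analysis was possible because there is only 1 group. Of 113 alternatives to 24 results, 88 left the direction and the call as they were. The excess of all X regions over the X share of promoter-window bases held in each, with a log2 ratio of 0.43 to 0.46 on a single replicate. Counting only regions inside those windows, a split added after the data were seen, the excess missed the threshold. Values below are log2 ratios of X over autosomes, and the causes of the changes were not tested. With the strongest 6000 pooled regions, the share of pooled regions taken was 0.091, spacing within 2000 bp 0.041, TTTTTTT -0.17, intergenic summits 0.25, genes tied 0.15 (the pooled share and the last pair now past the threshold), and 37 in place of 12 gene list members were tied. At or above the median signal the pooled share was 0.042, and with 6000 regions per replicate the overlap of both replicates was -0.012. With 100 bp windows the PHA-4 consensus was 0.21 and TTTTTTT -0.087; with the stricter forkhead sequences the consensus was 0.41. Narrow promoter windows gave 0.35 for intergenic summits and -0.10 for genes tied, wide ones -0.012 for genes tied, and the nearest gene alone 0.34. In splits added after the data were seen, promoter regions gave GAGAGAG -0.43, GCGCAGG 2.06 and TTTTTTT -0.31, and regions outside promoters gave the consensus -0.025 and GATAAG 0.26. On a single replicate, intergenic summits ranged between 0.11 and 0.46, signal above the median between -0.049 and 0.016, GAGAGAG between -0.65 and -0.52, and genes tied between -0.058 and 0.11. Limits are a single pair of libraries, unknown read depth, a signal of unstated scale, a tagged transgene, whole animals, and regions that lie beside each other and are not independent.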

Other observations

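Further values concern the letters around GCGCAGG, and were computed after its pattern had been seen, so they carry no test. All 7-base sequences, both strands counted together, were ranked by the share of X summit windows over the share of autosomal summit windows, among the 469 held by at least 10 X windows. Rank 1 was CGCGCAG, at 15 X summits (5.0%) and 2 autosomal summits (0.169%). It overlaps GCGCAGG, which itself had rank 4, and so does GCAGGGA, at 12 X summits (4.0%) and 5 autosomal summits (0.422%), with rank 3. The sequence at rank 2, ACACTAC, does not overlap it, and was at 10 X summits (3.33%) and 4 autosomal summits (0.338%).

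Counted over the whole sequence, 16 of the 357 GCGCAGG matches on X (4.48%, 95% exact binomial interval 2.58 to 7.18%) lay in a summit window of the reproducible list, against 6 of 1642 matches on the autosomes (0.365%, 0.134 to 0.794%). With T and C right before the stretch there were 48 matches on X, or 2.71 per Mb, and 68 on the autosomes, or 0.824 per Mb. Of these, 10 of 48 on X (20.8%, 10.5 to 34.99%) lay in a summit window of the reproducible list, against 0 of 68 on the autosomes (interval up to 5.28%). In the pooled list of 30000 regions the counts were 13 of 48 on X and 6 of 68 on the autosomes.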
